A study of Mus musculus with 2 samples.

Results

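The mitochondrial genome of the mouse holds 37 genes, and the members described here are the gene entries of both deposited tables whose identifier maps to a symbol that starts with mt-. The rule found 37 of 43346 mouse gene entries, all annotated on chromosome M: 13 messenger RNAs, 2 ribosomal RNAs and 22 transfer RNAs. Polyadenylated RNA was sequenced from both ends in G1E-ER4 cells, an immortalized mouse erythroid line that has no working Gata1 of its own; an added GATA1 joined to the hormone-binding region of the estrogen receptor becomes active with estradiol. There is 1 group, cells given 10 nM 17beta-estradiol for 24 h to induce differentiation, with 2 libraries labelled biological replicates 1 and 2. Both share 1 biosample record, and technical and biological differences between them cannot be told apart. Untreated cells were not analysed here.

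Mitochondrial DNA is copied and transcribed inside the organelle by nuclear-encoded enzymes. Both strands are read as long precursors, and the transfer RNAs that lie between the other genes mark most of the sites at which the precursors are cut. The released messengers receive short poly(A) tails and encode subunits of respiratory complexes I, III and IV and of ATP synthase (complex V), while the nucleus encodes the other subunits. Maturing red cells need mitochondria for heme and iron-sulfur cluster synthesis and later lose them.

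The layout and the ends of these genes are given first, since many of the entries are short, abutting or partly overlapping. Their effect on the values below was not tested. Of the 36 neighbouring gene pairs, 9 overlapped, 12 adjoined with no base between them, 14 were 1 to 5 bases apart and 1 pair was 32 bases apart (GENCODE M21 positions on GRCm38, the assembly also called mm10). Of the 13 messengers, 10 ended in a complete stop codon and 3 ended in a single T: mt-Co3, mt-Nd4 and mt-Cytb. For such genes the poly(A) tail is what completes the stop codon, so those genes have no stop codon in their genomic sequence. The last 30 bases of the 3 genes and, for contrast, of mt-Co2 are shown 5′ to 3′ with the bases of the complete or incomplete stop codon in capitals, at chrM:9361-9390, chrM:11515-11544, chrM:15259-15288 and chrM:7667-7696, all on the plus strand.
mt-Co3: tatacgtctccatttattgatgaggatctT
mt-Nd4: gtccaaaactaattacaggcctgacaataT
mt-Cytb: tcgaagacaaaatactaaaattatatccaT
mt-Co2: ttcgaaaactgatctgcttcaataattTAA

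Some messengers share bases with their neighbour. The mt-Atp8 and mt-Atp6 reading frames, both subunits of ATP synthase on 1 shared messenger, overlap by 43 bases, and mt-Nd4l and mt-Nd4 overlap by 7 bases. The sequences are shown with the overlap in capitals after the 10 bases before it (chrM:7917-7969 and chrM:10157-10173, plus strand). The bases in capitals belong to both genes. Both overlaps are shorter than the difference between length and effective length, which was 151.84 bases in replicate 1 and 129.72 in replicate 2.
mt-Atp8 and mt-Atp6: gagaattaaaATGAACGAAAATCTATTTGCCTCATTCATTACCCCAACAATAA
mt-Nd4l and mt-Nd4: acctactacaATGCTAA

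The transfer RNA genes were between 59 bases (mt-Ts2) and 75 bases (mt-Tl1) long. Their sequences are given because genes this short could hardly be counted in these tables (chrM:11613-11671 and chrM:2676-2750, plus strand).
mt-Ts2: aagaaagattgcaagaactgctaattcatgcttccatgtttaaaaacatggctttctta
mt-Tl1: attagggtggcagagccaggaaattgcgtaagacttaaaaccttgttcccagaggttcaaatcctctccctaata
The deposited effective length, which is the number of start positions a fragment of the library can take in a gene, was 0 for all 22 transfer RNAs in both libraries. Every transfer RNA stood at 0 counts and 0 TPM. Entries that short were almost never given counts, so the tables say nothing about transfer RNA in these cells. Over all gene entries the effective length was 0 for 3781 entries in replicate 1 and 3464 in replicate 2, of which 1 held counts in each library.

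The libraries differed in depth and in much else. Replicate 1 had 70451041 estimated counts over the gene entries against 13841484 for replicate 2, a ratio of 5.09. Of 10 erythroid markers, 9 reached 1 TPM in both libraries, with a summed level of 195262 TPM in replicate 1 and 83805 TPM in replicate 2. Markers of myeloid cells (0 of 5), lymphoid cells (0 of 4) and stromal or endothelial cells (0 of 4) did not reach 1 TPM in both libraries, their sums lay between 0.06 and 0.61 TPM, and Lyz2, Csf1r and Cd3e were at 0. Of 4 megakaryocyte markers 2 did, with sums of 5.35 and 8.09 TPM and Pf4 at 0. Across all genes, 47.9% of 8884 tested genes differed between the libraries by the test used below, so the values of each library are given throughout, and part of any difference named here can be a difference between these libraries as a whole.

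Near-identical copies of 7 messengers lie in the nuclear genome, and several of the deposited values moved with them. The pairs were found by aligning the GENCODE M21 sequences of the members against all other annotated transcripts. The copies lie in 1 insert on the minus strand at chr1:24611535-24616197 (mm10), in the order and orientation of the mitochondrial genes from mt-Co1 to mt-Nd4, and are annotated as unprocessed pseudogenes. Identity over the aligned bases was between 99.71% and 100%, and 5 of the 7 copies had no mismatch. The copies of mt-Co2 (Gm28661), mt-Atp6 (Gm10925) and mt-Nd4l (Gm10222) differ from the gene in lacking its last 3 bases, and the copy of mt-Co3 (Gm28437) lacks the last base. The ends of the copies of mt-Co2 (chr1:24614885-24614911) and mt-Co3 (chr1:24613189-24613217), minus strand, can be set beside the gene ends printed above.
Gm28661: ttcgaaaactgatctgcttcaataatt
Gm28437: tatacgtctccatttattgatgaggatct
Over the aligned bases 2 substitutions were found, with positions counted from 1 at the first base of the mitochondrial gene. They were A1066T from mt-Co1 to Gm29216, near the start of the 483 aligned bases, and T3C from mt-Nd3 to Gm28438. The mt-Co1 alignment begins at base 10 of the 492 bases of Gm29216, and the bases before it are not covered. The mt-Nd3 start is shown with the differing base in capitals.
mt-Nd3: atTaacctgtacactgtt
Gm28438: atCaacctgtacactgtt

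A fragment from a stretch without a mismatch can be given to the gene or to its copy, and the tables divided such fragments unequally. The 7 genes held 56131 counts and their copies 69157, or 55.2% of the sum, in replicate 1. In replicate 2 the genes held 1002 counts and the copies 1622, or 61.8%. The copy held more counts than the gene in 4 of 7 pairs in each library.

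Cytochrome oxidase subunit genes show how far the division went. The mt-Co3 entry held 11.3 counts in replicate 1 against 14115 for Gm28437, and 189 against 193 in replicate 2. The mt-Co2 entry held 530.01 counts against 17564 for Gm28661 in replicate 1, and 0 against 169 in replicate 2. In these pairs the copy had 99.9% and 97.1% of the counts in replicate 1, and 50.5% and 100% in replicate 2. The mt-Co1 gene kept 30413 counts beside 13874 for Gm29216 in replicate 1 and 511 beside 239 in replicate 2; this copy covers only the last part of the gene, and its share was 31.3% and 31.9%.

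ATP synthase subunit 6 and the short complex I subunit ND4L were divided in the same manner. The mt-Atp6 entry held 8245 counts beside 15604 for Gm10925 in replicate 1, and 0 beside 605 in replicate 2. The mt-Nd4l entry held 1228 counts beside 7999.93 for Gm10222 in replicate 1, and 0 beside 416 in replicate 2. The remaining copies received nothing: Gm28438 (mt-Nd3) and Gm28439 (mt-Nd4) were at 0 counts in both libraries, although Gm28439 matches 876 bases of mt-Nd4 without a mismatch.

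The deposited posterior estimates carry an error for this division. For mt-Atp6 in replicate 1 the posterior mean was 12957 counts with a posterior SD of 5709, and for Gm10925 it was 10892 counts with the same SD. For mt-Co3 in replicate 1 it was 5236 counts with an SD of 4371, against the 11.3 counts of the maximum likelihood value. The posterior SD of gene and copy was equal in 7 of 7 pairs in each library, and the sum of gene and copy differed by at most 0.14 counts between the maximum likelihood and the posterior mean values. For mt-Co2, mt-Atp6 and mt-Co3, whose copies match without a mismatch, the sum was therefore the same under both estimates while the division was not. The copy of mt-Nd4l also matches without a mismatch, yet its share hardly moved in replicate 1 (86.7% and 86.5%) and fell from 100% to 69.3% in replicate 2. The share for mt-Co1 in replicate 1 was 31.3% under both. Under the posterior mean the copies held 43.3% of the pair sums in replicate 1 and 45.9% in replicate 2. Less similar copies received almost nothing: 4 entries of 95.2% to 97.6% identity to mt-Nd2, mt-Co1, mt-Co2 and mt-Nd5 held between 0 and 3.12 counts.

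**Figure D1:**
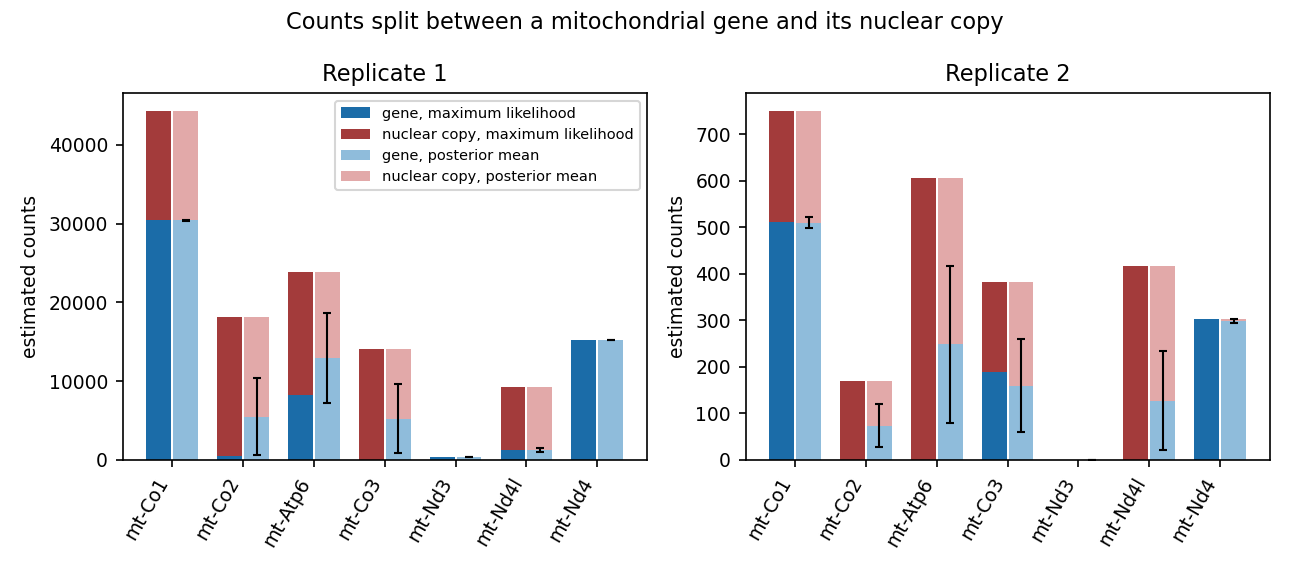
Estimated counts (linear axis, a separate scale for each library) of 7 mitochondrial messengers and their near-identical nuclear copies, stacked with the gene below and the copy on top, as maximum likelihood values (dark) and posterior means (light). Error bars are the deposited posterior SD of the gene, cut at 0, and the stacks of a pair reach the same height. The division inside them moves for some pairs, as for mt-Co3 in replicate 1 with 11.3 against 5236 counts for the gene. It hardly moves for others, such as mt-Co1.

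Because of this, each of these 7 messengers is given below both as deposited and with the counts of its copy added and divided by the gene's own effective length. The second level assigns all shared fragments to the mitochondrial gene; which genome they came from was not tested.

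Counts in the own entries of the 37 genes came to 184339 for replicate 1 and 12993 for replicate 2. Their share of the library was 0.262% for replicate 1, with a 95% Wilson interval of 0.260 to 0.263, against 0.0939% for replicate 2, with an interval of 0.0923 to 0.0955. The intervals cover counting error only. With the nuclear copies the shares were 0.360% and 0.106%. The share was 0.178% ± 0.119 (SD, n = 2), and the higher value in replicate 1 lies far outside the counting interval of replicate 2. On the scale of TPM, which corrects for length and scales each library to the same total, the members summed to 3302 TPM in replicate 1 against 2515 in replicate 2, and with the copies to 5476 and 2904 TPM.

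Of the 37 members, 10 reached 1 TPM in both libraries: 8 of 13 messengers, both ribosomal RNAs and 0 of 22 transfer RNAs. Over all gene entries 17.2% did so. In replicate 1 alone 14 members reached that level and in replicate 2 alone 11, and 4 messengers were at 0 counts in replicate 2: mt-Co2, mt-Atp6, mt-Nd3 and mt-Nd4l. With the copies added, 14 members reached 1 TPM in both libraries, and mt-Nd3 alone of the messengers did not.

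**Figure D2:**
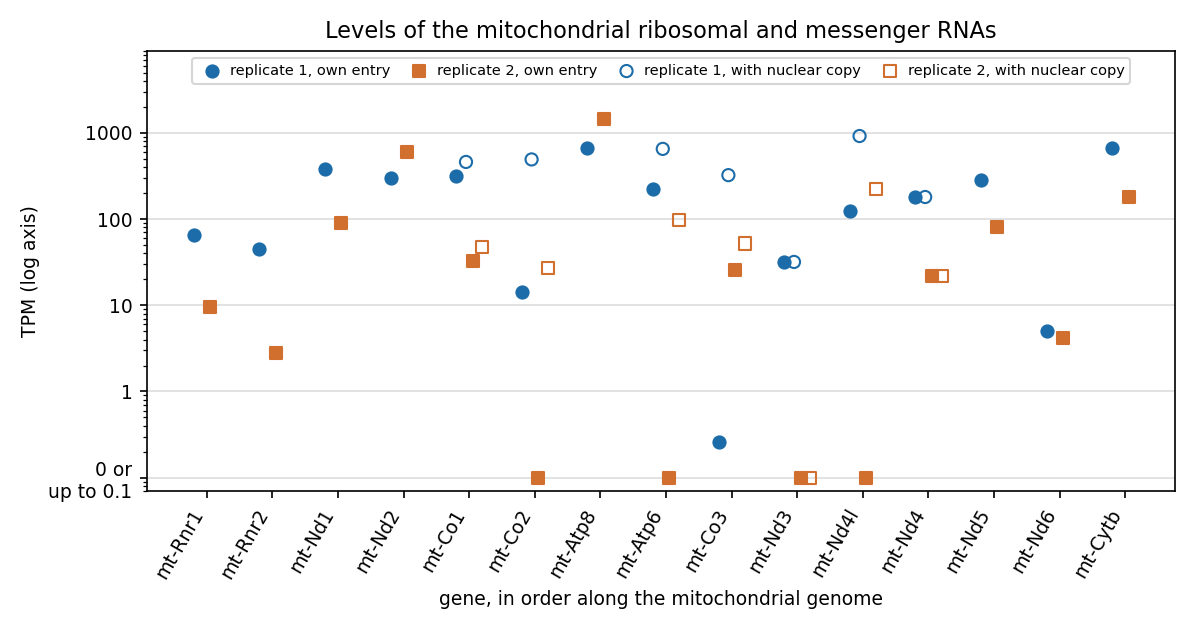
Level in TPM (log axis) of the 2 ribosomal and 13 messenger RNAs in the order of the mitochondrial genome, as deposited (filled) and with the near-identical nuclear copy added (open), with circles for replicate 1 and squares for replicate 2. Values up to 0.1, zero included, are drawn at 0.1; the highest point is mt-Atp8 in replicate 2 at 1456 TPM, and 4 messengers lie at 0 in replicate 2 as deposited, of which mt-Nd3 stays there with the copy added.

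Complex I, which takes electrons from NADH, has 7 subunits made in the mitochondrion. The level of mt-Nd1 was 383 TPM in replicate 1 and 89.3 TPM in replicate 2. That of mt-Nd5 was 283 and 82.05 TPM, and that of mt-Nd4 was 181 and 21.6 TPM. These 3 subunits of the membrane arm were all lower in replicate 2. The mt-Nd2 gene differed in the other direction, with 301 TPM in replicate 1 and 609 TPM in replicate 2, where it held 47.6% of all mitochondrial counts against 9.98% in replicate 1. No near-identical copy of mt-Nd2 was found, and its closest nuclear relative, Gm13339, held 1.12 and 0 counts.

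The smaller complex I genes were low or rested on the division of counts. The mt-Nd3 level was 31.9 TPM in replicate 1 and 0 in replicate 2, with 431 and 0 counts, and its copy held 0 counts in both. A count of 0 in replicate 2 allows up to 0.217 CPM (counts scaled to library size). The mt-Nd4l level was 123 TPM in replicate 1 and 0 in replicate 2, and with its copy 922 and 222 TPM, which made it the highest of the 15 in replicate 1. That rank rests on an effective length of 145 of 297 bases. As counts per kilobase of annotated length in replicate 1, mt-Nd4l with its copy had 31071, below mt-Cytb (39567) and mt-Atp6 with its copy (35021). The maximum likelihood and posterior mean values left 86.7% and 86.5% of the replicate 1 sum with Gm10222. The mt-Nd6 gene was at 5.10 and 4.14 TPM (129 and 18 counts), close together and the lowest messenger with counts in both libraries except for the 0.26 TPM of mt-Co3 in replicate 1.

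Cytochrome b, encoded by mt-Cytb, is the 1 mitochondrial subunit of complex III, which passes electrons from ubiquinol to cytochrome c. It stood at 662 TPM in replicate 1 and 182 TPM in replicate 2. It had the most counts of any member in replicate 1, 45265, and a smaller number only than mt-Nd2 in replicate 2, 2068 against 6181.

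Complex IV, cytochrome c oxidase, has its catalytic core in mt-Co1 and mt-Co2, with mt-Co3 as the third core subunit. As deposited, mt-Co1 was at 317 TPM in replicate 1 and 32.3 TPM in replicate 2. The mt-Co2 gene was at 14.45 TPM and 0, and mt-Co3 at 0.26 and 25.8 TPM, so the 3 subunits of 1 enzyme lay far apart in replicate 1. With the copies, the spread closed to 461 TPM for mt-Co1, 493 for mt-Co2 and 324 for mt-Co3 in replicate 1. In replicate 2 they were at 47.4, 27.3 and 52.2 TPM, so each was higher in replicate 1.

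Of the ATP synthase subunits, mt-Atp8 was at 666 TPM in replicate 1 and 1456 TPM in replicate 2, the highest own-entry TPM of any member in both. The mt-Atp6 level was 226 TPM and 0, and with its copy 654 and 98.2 TPM. On these values mt-Atp8 and mt-Atp6 were nearly equal in replicate 1, with a ratio of 1.02, and 14.8 apart in replicate 2, though both are read from the same messenger. The mt-Atp8 entry is 204 bases long, with an effective length of 53.72 bases in replicate 1 and 74.35 in replicate 2, so its TPM rests on that correction. As counts per kilobase of annotated length it had 12088 and 5931, below mt-Cytb (39567) in replicate 1 and just below mt-Nd2 (5955) in replicate 2. The same measure was 35021 and 888 for mt-Atp6 with its copy, and the order of the pair turned in replicate 1. No annotated nuclear transcript matched mt-Atp8 over 50 bases or more at 95% identity or more. The last 43 bases of mt-Atp8 are also the start of mt-Atp6, which Gm10925 matches without a mismatch. Unannotated sequence of the insert, such as that between the copies of mt-Co2 and mt-Atp6, was not searched, so a copy of mt-Atp8 there would have been missed.

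By complex, the 7 complex I messengers made up 41.0% of the messenger TPM in replicate 1 and 32.2% in replicate 2, complex III 20.7% and 7.29%, complex IV 10.4% and 2.32%, and complex V 27.9% and 58.2%. The complex I share was 36.6% ± 6.19 (SD, n = 2). With the copies, complex I made up 39.3% and 35.6%, complex III 12.3% and 6.31%, complex IV 23.8% and 4.39% and complex V 24.6% and 53.7%. Complex IV was the part that moved most with the copies in replicate 1, and complex V was the largest part in replicate 2 either way, through mt-Atp8. That order holds on the scale corrected for effective length: of messenger counts in replicate 2, complex V held 9.41% and complex I 69.1%, and complex I made up 48.8% of counts per kilobase.

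The 2 ribosomal RNAs, the structural RNAs of the mitochondrial ribosome, are among the most abundant RNAs of the organelle and carry only very short tails; the libraries here are of polyadenylated RNA. The 12S RNA gene mt-Rnr1 had 3609 and 89 counts, which gave 65.2 TPM for replicate 1 and 9.65 TPM for replicate 2. The 16S RNA gene mt-Rnr2 had 4433 and 45 counts, or 45.0 and 2.77 TPM. Together they held 4.36% of mitochondrial counts in replicate 1 and 1.03% in replicate 2 (2.70% ± 2.36, SD, n = 2). The ratio of mt-Rnr1 to mt-Rnr2 in TPM was 1.45 and 3.48, so mt-Rnr1 was the higher in both.

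Of the 37 genes 28 are read in the plus direction of the reference, among them 12 messengers, and 9 in the minus direction: mt-Nd6 and 8 transfer RNAs. The 12 plus-strand messengers averaged 266 TPM in replicate 1 and 208 TPM in replicate 2, against the 5.10 and 4.14 TPM of mt-Nd6. The log2 of that ratio, with a pseudocount of 0.1 TPM, was 5.68 and 5.62 (5.65 ± 0.04, SD, n = 2), and with the copies 6.43 and 5.83 (6.13 ± 0.42). The deposited means lay close although single genes did not. The TPM ratio to mt-Nd6 was 130 and 44.1 for mt-Cytb and 55.6 and 19.8 for mt-Nd5. The levels of mt-Atp8 (666 and 1456 TPM) and mt-Nd2 (301 and 609 TPM) went the other way, as did the mt-Co3 entry. As deposited, 11 of 12 plus-strand messengers were above mt-Nd6 in replicate 1 and 8 of 12 in replicate 2. With the copies, 12 of 12 plus-strand messengers were above mt-Nd6 in replicate 1 and 11 of 12 in replicate 2, the exception being mt-Nd3. In human cells the ND6 messenger is known to lack a regular poly(A) tail. The last 14 bases of mt-Nd5 lie opposite the end of mt-Nd6, and the sources used here do not say whether fragments were counted by strand.
mt-Nd5 and mt-Nd6: TTAATCTCGAGTAA
The overlap is written as the plus strand reads it (chrM:13552-13565), in capitals throughout because every base belongs to both genes.

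The order of the 15 messenger and ribosomal levels was only partly shared by the libraries. As deposited, 77 of 105 gene pairs stood in the same order in both, with a Spearman rho of 0.708 across genes, which share their libraries and are not independent replicates. With the copies 87 pairs did (rho 0.811), and among the 8 genes without an annotated near-identical copy 25 of 28 (rho 0.905). With the copies, the mean levels ran from mt-Atp8 at 1061 ± 559 TPM, over mt-Nd4l (572 ± 495), mt-Nd2 (455 ± 218) and mt-Cytb (422 ± 339), down to mt-Rnr2 (23.9 ± 29.8), mt-Nd3 (15.9 ± 22.5) and mt-Nd6 (4.62 ± 0.679; SD, n = 2 each). In 0 of the 14 neighbouring steps of that order was the gap larger than the larger SD of the 2 genes. That SD includes the shift shared by all genes of a library, and some neighbours kept their order within both libraries, such as mt-Nd5 over mt-Nd4 and mt-Rnr1 over mt-Rnr2.

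The libraries were also compared gene by gene, with counts scaled by TMM and a two-sided exact binomial test on each gene, Benjamini-Hochberg adjusted over 8884 genes and called at an adjusted p under 0.05 with at least 2-fold. This compares 2 libraries of the same treatment, not conditions. Of the 15 members tested, 11 were higher in replicate 1, where 30% of all genes tested were called in that direction, and 3 were higher in replicate 2, where 17.9% of all genes were. The 22 transfer RNAs were not tested. The median log2 ratio of replicate 1 over replicate 2 was 2.59 over the 15 members and 1.94 over the 13 messengers, against 0.20 over all genes tested.

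The 3 members that were higher in replicate 2 were mt-Nd2 (2.25-fold over replicate 1), mt-Atp8 (3.29-fold, adjusted p = 1.17e-211 in the exact binomial test) and mt-Co3 (107-fold). The mt-Co3 call turned when its copy was added: 14126 counts in replicate 1 and 382 in replicate 2 gave a ratio of 5.51 in favour of replicate 1. With the copies 12 members were higher in replicate 1, where 29.9% of all genes were called so, 2 were higher in replicate 2 and the median log2 ratio over the 15 was 2.46. With posterior mean counts mt-Co3 was likewise higher in replicate 1 (log2 ratio 2.30), and mt-Nd4l was no longer called (log2 ratio 0.54). With library totals in place of TMM, mt-Nd2 was 1.71-fold higher in replicate 2 and missed the 2-fold limit. The mt-Nd6 gene was the member not called with or without the copies, with a log2 ratio of 0.09 (adjusted p = 0.922, exact binomial test).

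Among the genes without an annotated near-identical copy, mt-Nd1 was 3.83-fold, mt-Nd5 3.13-fold and mt-Cytb 3.26-fold higher in replicate 1 on TMM-scaled counts. The ribosomal RNAs differed more, by 6.04-fold for mt-Rnr1 (adjusted p = 1.78e-115, exact binomial test) and 14.6-fold for mt-Rnr2 (adjusted p = 8.18e-199). Of these 8 genes 5 were higher in replicate 1, 2 were higher in replicate 2 and 1 was not called, where 30% and 17.9% of all genes tested were called in these directions. Of the genes with a copy, mt-Nd4 was 7.54-fold and mt-Co1 8.87-fold higher in replicate 1.

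Of the 4 messengers at 0 maximum likelihood counts in replicate 2, 3 had a copy that held counts there. No fold is given for those entries as deposited, and which genome these fragments came from was not tested. The posterior means of the same entries were 5466 counts in replicate 1 and 74.0 in replicate 2 for mt-Co2. They were 12957 and 248 counts for mt-Atp6 and 1244 and 128 for mt-Nd4l. On TMM-scaled posterior means, mt-Co2 was 11.04-fold and mt-Atp6 7.82-fold higher in replicate 1, and mt-Nd4l, at 1.45-fold, was not called. With the copies the ratios were 15.95 for mt-Co2, 5.88 for mt-Atp6 and 3.31 for mt-Nd4l. The mt-Nd3 gene was at 0 in replicate 2 under both estimates and so was its copy, so its fold is a lower bound, at least 21.4-fold higher in replicate 1 when 3 counts are set for replicate 2. The depth of replicate 2 was lower throughout, and its part in these differences beyond the scaling was not tested.

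**Figure D3:**
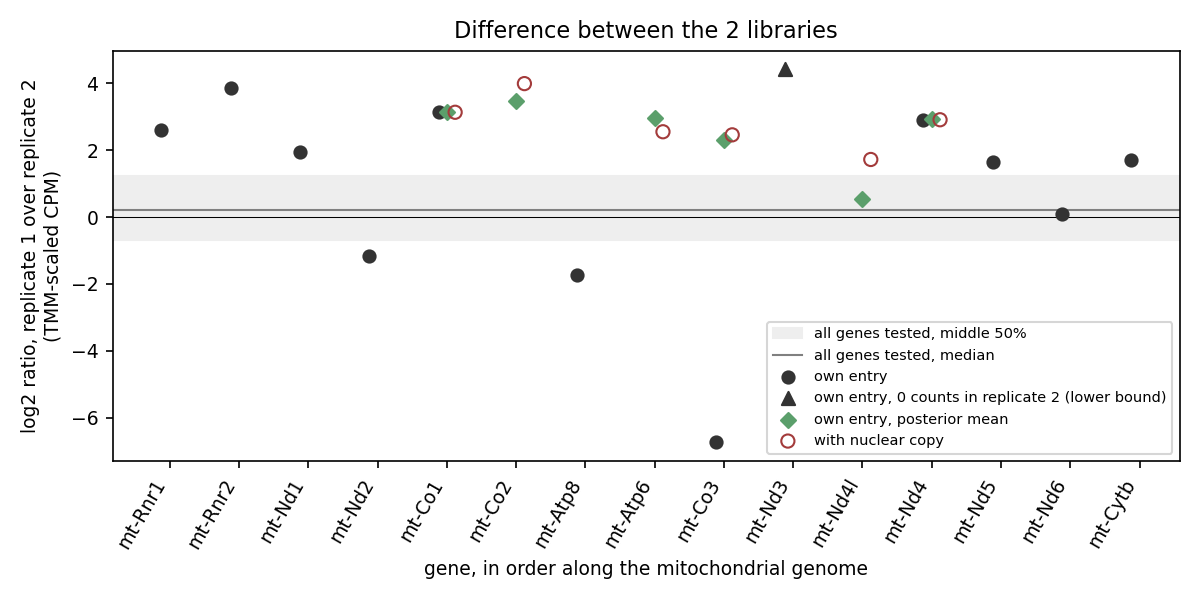
Log2 ratio of replicate 1 over replicate 2 (TMM-scaled CPM) for the 15 ribosomal and messenger RNAs, as deposited (filled circles), from posterior means for genes with a copy (diamonds) and with the nuclear copy added (open circles). The triangle is the lower bound of mt-Nd3, and mt-Co2, mt-Atp6 and mt-Nd4l have no filled circle because their own entry held 0 counts in replicate 2. The grey band spans the middle 50% of all genes tested around their median of 0.20; mt-Nd2, mt-Atp8 and the own entry of mt-Co3 lie below it.

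Nuclear genes that keep and express mitochondrial DNA ranged widely in level. Of 41 such genes 23 reached 1 TPM in both libraries, where 17.2% of all gene entries did, and the median over the 41 was 4.42 TPM in replicate 1 and 1.98 TPM in replicate 2. Of the 32 tested, 14 were higher in replicate 1 and 3 in replicate 2, with a median log2 ratio of 0.82, against 30% and 17.9% of all genes tested and a median of 0.20.

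For the upkeep of mitochondrial DNA, 6 of 11 genes reached that level. The highest were Polg, the DNA polymerase of the organelle, at 159 and 305 TPM, the ligase gene Lig3 at 31.2 and 84.1 TPM and the single-strand binding protein gene Ssbp1 at 6.10 and 8.97 TPM. The lowest were the exonuclease gene Mgme1, at 0.94 and 0.13 TPM, and the topoisomerase gene Top1mt, at 0.56 TPM and 0. For transcription, 4 of 9 did. Mrpl12, which encodes a ribosomal protein, was at 98.5 and 46.6 TPM, the RNA polymerase gene Polrmt at 11.4 and 12.1 TPM and Mterf3 at 14.5 and 1.53 TPM. The elongation factor gene Tefm and the ribosomal RNA methyltransferase gene Tfb1m had 0.27 TPM each in replicate 1 and Mterf2 had 0.17 TPM, and all 3 were at 0 in replicate 2. Of the 6 transcription genes tested, 3 were higher in replicate 1 and 0 in replicate 2, against 30% and 17.9% of all genes tested. Their median log2 ratio was 1.20, against 0.20 over all genes tested, and the log2 ratio of Polrmt was -0.20.

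Processing genes cut and handle the precursors, and 8 of 14 reached 1 TPM in both libraries. The highest were the RNA-binding protein genes Fastk (256 and 280 TPM), Grsf1 (42.5 and 144 TPM) and Tbrg4 (84.4 and 92.9 TPM). The lowest were 1110008L16Rik, at 0.48 and 0.03 TPM, and Fastkd1, at 0.06 and 0.17 TPM. For RNA stability and tails, 5 of 7 did. Rexo2, an oligoribonuclease gene, was at 192 and 34.1 TPM, the polynucleotide phosphorylase gene Pnpt1 at 56.7 and 99.9 TPM and its helicase partner gene Supv3l1 at 8.40 and 15.2 TPM. The lowest were Slirp, a partner of Lrpprc in holding messengers, at 2.74 and 0.03 TPM, and Mtpap, the mitochondrial poly(A) polymerase gene, at 2.04 and 0.21 TPM.

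The nuclear subunits that join the mitochondrial ones were nearly all detected. Of 41 partner subunits 39 reached 1 TPM in both libraries, and the median was 103 TPM in replicate 1 and 32.6 TPM in replicate 2. Of the 40 tested 17 were higher in replicate 1 and 3 in replicate 2, where 30% and 17.9% of all genes tested were. The median log2 ratio was 0.66, against 1.94 for the mitochondrial messengers and 0.20 for all genes tested; the difference between the lists was not tested.

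The partners differed by complex. The 7 complex I core partners had a median of 104 TPM in replicate 1 and 27.6 TPM in replicate 2, with Ndufs7 (152 and 199.7 TPM), Ndufv1 (204 and 54.0 TPM) and Ndufv2 (127 and 15.9 TPM) highest and Ndufs8 (41.5 and 9.23 TPM) lowest. The mitochondrial complex I messengers had a mean, not a median, of 301 TPM in replicate 1 and 147 TPM in replicate 2 with the copies. Their median gene in both libraries was mt-Nd5, at 283 and 82.05 TPM. Complex III partners had a median of 109.7 TPM in replicate 1 and 153 TPM in replicate 2, led by Uqcr11 (1123 and 236 TPM), Uqcrc1 (295 and 318 TPM) and Uqcrq (245 and 164 TPM), with Uqcrb (13.6 TPM and 0) and Uqcrc2 (6.61 and 3.69 TPM) lowest.

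Complex IV partners summed highest, to 6887 TPM in replicate 1 and 10335 TPM in replicate 2, mostly Cox6a1 (3267 and 6959.7 TPM), Cox5b (2033 and 1927 TPM) and Cox5a (741 and 964 TPM). Cox7b (8.90 and 9 TPM) and Cox6c (12.1 and 4.62 TPM) were lowest. The median of these partners was 154 TPM in replicate 1 and 27.9 TPM in replicate 2. The mitochondrial complex IV messengers, with the copies, had a mean of 426 TPM in replicate 1 and 42.3 TPM in replicate 2. Their median gene in both libraries was mt-Co1, at 461 and 47.4 TPM. For complex V the partners summed to 4543 and 3711 TPM, led by the beta subunit gene Atp5b (1426 and 1269 TPM), the delta subunit gene Atp5d (1025 and 1293 TPM) and Atp5g3, of the membrane ring (934 and 379 TPM), with Atp5c1 (11.4 and 3.94 TPM) and Atp5e (2.20 and 1.90 TPM) lowest.

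**Figure D4:**
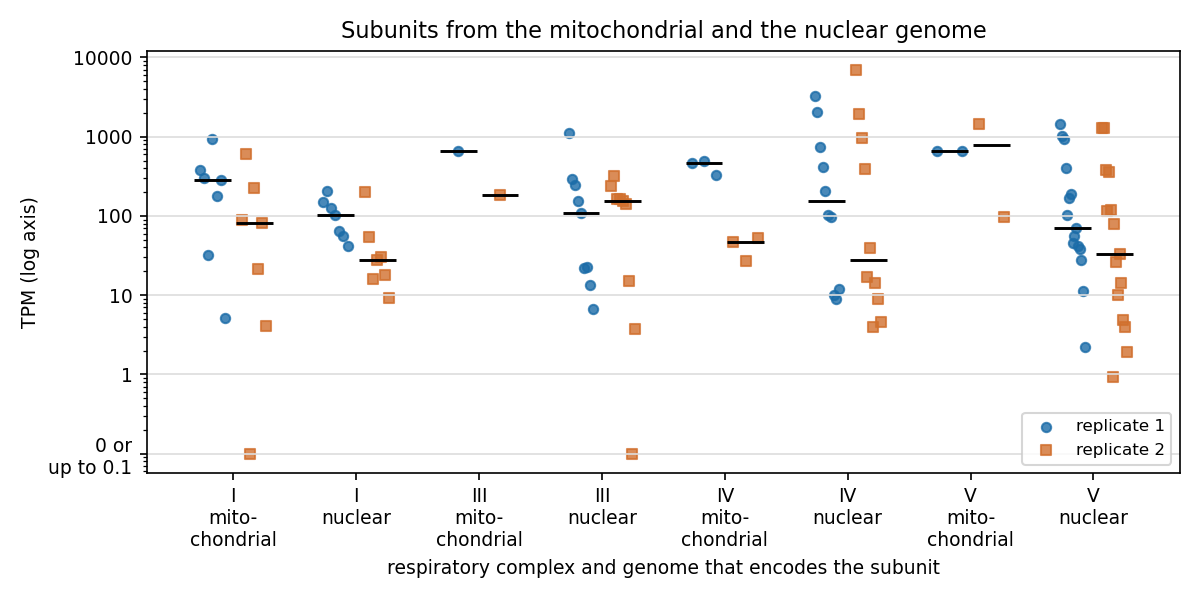
Level in TPM (log axis; values up to 0.1, zero included, at 0.1) of each mitochondrial messenger, with its nuclear copy added, and of the nuclear partner subunits of the same complex, in replicate 1 (circles) and replicate 2 (squares); the black bars are medians within a library. For complex IV the mitochondrial messengers fall between 324 and 493 TPM in replicate 1 and between 27.3 and 52.2 TPM in replicate 2, while the nuclear partners cover a wider range in both.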

How the data were processed

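Per the labels and the text deposited beside the tables, the values were made on mm10 with GENCODE M4 starting at transcriptome alignments. The sources used here do not name the aligner or the quantifier, or say whether counting used strand. The deposited estimated counts (maximum likelihood and posterior mean) need not be whole, and the deposited TPM and FPKM values are corrected for effective length. The level of the deposited TPM interval is not named, so it is not printed. Other entries (transfer RNA predictions and spike-ins) had 3 counts in replicate 1, 0 in replicate 2, and did not enter the totals.

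Symbols, positions and sequences came from GENCODE M21 (GRCm38) by identifier without version; all 37 members had the same length in the tables and in those sequences. Nuclear copies were annotated transcripts that blastn 2.17.0 aligned to a member over at least 50 bases at 95% identity or more, and near-identical at 99% or more, a limit chosen after the data were seen. Counts of gene and copy were added and divided by the gene's effective length on the TPM scale of the library.

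The libraries were compared on estimated counts rounded to whole numbers, with TMM scaling (edgeR 4.0.16; factors of 1.15 and 0.871) where the mean CPM was 1 or more, with a two-sided exact binomial test, a prior count of 0.5 for log2 ratios and Benjamini-Hochberg adjustment. With 1 library a side a quasi-likelihood test has no residual degrees of freedom. The p-values cover counting error in these 2 libraries and include no estimate of the spread between samples. Detected means at least 1 TPM in both libraries. Of these steps, only the comparison of the libraries was tested on simulated counts. Those had planted folds and no spread between libraries beyond counting error, unlike the real ones. R 4.3.3, DESeq2 1.42.0 (size factors, as an alternative), matplotlib 3.10.9, scipy 1.17.1, numpy 2.4.6, pandas 2.3.3 and Python 3.11.15 were used.

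All members are named or counted; of each nuclear list the 3 highest and 2 lowest by mean TPM are named, with ties, except for 1 gene that is not reported here. Members, gene lists and marker lists were chosen with earlier results of these data known. List symbols without an entry were Prorp, Kiaa0391, Fastkd4 and Suv3l1, whose genes were matched under other names, and Gm10924 and Gm10926.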

Additional observations from a re-analysis of the deposited data

How the results depend on the processing

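No paired analysis was possible because the labels give 1 group. Replicate 2 has fewer counts, which limits what a 0 there can show, and with 2 libraries each SD rests on a single difference. Leaving out 1 library gave 0.0939% to 0.262% for the mitochondrial share of counts, 0.251% to 0.330% for the share of TPM, 32.2% to 41.0% for the complex I share, 1.03% to 4.36% for the ribosomal share, 5.62 to 5.68 for the log2 ratio of plus-strand messengers over mt-Nd6, 11 to 14 members detected, 23 to 31 nuclear expression genes and 39 to 41 partner subunits. The share of mitochondrial TPM, 0.291% as deposited, was 0.178% on CPM, 0.445% with the TPM of the nuclear copies added and 0.419% with their counts over the gene's own effective length. The complex I share, 36.6% as deposited, was 59.9% on CPM and 47.9% on counts per kilobase of annotated length. The log2 ratio of plus-strand messengers over mt-Nd6, 5.65 as deposited, was 5.72 with posterior means, 6.27 on CPM, 6.20 with the TPM of the copies added, 6.13 with their counts over the gene's own effective length, 5.51 on counts per kilobase and 5.40 with a pseudocount of 1, so it kept its direction under each of these. At a minimum of 5 TPM, 15 nuclear expression genes were detected in place of 23. Genes that differed between the libraries fell to 2496 at a mean CPM of at least 10, where fewer genes are tested, against 4256. The median log2 ratio of the messengers was 2.34 with total counts in place of TMM, which also moved the median of all genes to 0.61. The other 38 values under the alternatives, the members called among them (10 to 14), stayed within 1.5 times the reported count or 1 SD of the reported value (0.1 for the median log2 ratio). That SD is the spread between 2 unlike libraries, so staying within it is a weak limit. The mitochondrial share of counts, for example, was 0.233% with the copies against 0.178% as deposited. Counts per kilobase and the added forms of the nuclear copies were chosen after the data were seen. A group of 2 is too small for a check of outlying samples.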
